A study of Mus musculus with 5 samples.

Results

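The IL-33 receptor ST2 and the proteins that carry its signal were followed through 10 genes in regulatory T cells (Tregs). The genes were listed by symbol: Il1rl1, Il1rap, Il18r1, Il18rap, Il1r2, Myd88, Irak1, Irak2, Irak4 and Traf6. Earlier results of these data were known when the list was chosen. All 10 were found by Ensembl ID among 22039 gene symbols with a value in at least 1 library. Each of 5 groups of C57BL/6 mice was represented by 1 library of sorted Tregs, and every mouse carried the Cre recombinase in the Foxp3 gene (Foxp3Cre), which limits Cre to cells that express Foxp3. The 4-month groups were lymph node (LN) Tregs, adipose Tregs, and adipose Tregs of obese mice, with HFD (commonly high-fat diet) in the title. Lean stands here for the other 4-month adipose library, as no label of it speaks of obesity. The 10-month groups were adipose Tregs of Foxp3Cre mice and of Med23fl/fl;Foxp3Cre mice, in which a Mediator subunit gene is floxed, called here the library labelled Med23 KO. How many mice made up a library and how the cells were gated is not given.

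Levels are given in CPM, the deposited values rescaled to a sum of 1000000 per library, because the deposited tables were scaled separately. Folds between libraries of the same deposited table (lean or obese against LN, and the 10-month pair) use the deposited scaled counts, and all other folds use CPM. The interval after a fold is a 95% counting interval, which covers counting error only. With 1 library per group the spread between mice is unknown, and no test between conditions exists. The listed values stood for 4595046 to 9694474 reads per library, and a gene listed at 0 had fewer than 6 to 10 reads.

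As a check of the labels, Med23 had 7.02 scaled counts in 10-month Foxp3Cre Tregs and 13.9 in the library labelled Med23 KO, 1.98-fold higher (1.39 to 2.84). The label would have it lower, although counts summed over all exons cannot tell whether the floxed ones were lost. All 11 markers of T cells and Tregs were above 0 in all 5 libraries, with summed levels of 8258 to 11744 CPM. The libraries also differed in sex markers. Xist had 228 to 602 CPM in LN and both 10-month libraries but 0 and 3.6 CPM in lean and obese adipose Tregs, where the Y-linked Ddx3y had 560 and 562 CPM. Gapdh was near 0 in the same libraries, at 1.05 CPM in lean and 10.7 CPM in obese adipose Tregs against 548 to 979 CPM in the others. Any difference of lean or obese adipose Tregs from LN or 10-month Tregs cannot be told apart from this split.

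ST2 is the receptor for IL-33, a cytokine that damaged stromal and epithelial cells release. When IL-33 binds ST2, the shared chain IL-1RAcP (gene Il1rap) joins, and the paired intracellular TIR domains recruit MyD88, the kinases IRAK4, IRAK1 and IRAK2 and the ubiquitin ligase TRAF6, which lead to NF-kB and MAP kinases. The IL-18 receptor (Il18r1 and Il18rap) uses the same adaptors, while the decoy receptor encoded by Il1r2 binds IL-1 without signalling. Tregs of visceral fat are known for abundant ST2, and IL-33 expands them. Il1rl1 also gives rise to a secreted ST2 that captures IL-33, and counts per gene do not separate it from the membrane form.

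Il1r2, Il1rl1, Il18r1 and Il18rap lie close together on chromosome 1, so their promoters are shown as the regulatory sequence next to genes that went different ways below. The windows run from 250 bases before to 50 bases after a gene start in RefSeq (GRCm38.p6), read 5′ to 3′ on the gene's strand. They are a reference, since the deposited tables hold no coordinates and the submitters' processing notes name another build. Il1rl1 has 2 starts in the table, and the first of 3 windows is shown for Il18r1. Capitals mark AGATAA and TGATAA, forms of the site of GATA factors such as GATA3, on either strand (TTATCT and TTATCA when on the other strand). These do not overlap in the windows shown.
Il1rl1, upstream start, chr1:40429320-40429619 (plus strand): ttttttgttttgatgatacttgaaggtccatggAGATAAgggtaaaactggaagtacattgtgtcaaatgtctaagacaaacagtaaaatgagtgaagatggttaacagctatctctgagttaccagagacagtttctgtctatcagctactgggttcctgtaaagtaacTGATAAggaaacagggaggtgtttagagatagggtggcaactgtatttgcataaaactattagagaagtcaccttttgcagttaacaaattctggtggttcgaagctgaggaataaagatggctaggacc
Il1rl1, downstream start, chr1:40439379-40439678 (plus strand): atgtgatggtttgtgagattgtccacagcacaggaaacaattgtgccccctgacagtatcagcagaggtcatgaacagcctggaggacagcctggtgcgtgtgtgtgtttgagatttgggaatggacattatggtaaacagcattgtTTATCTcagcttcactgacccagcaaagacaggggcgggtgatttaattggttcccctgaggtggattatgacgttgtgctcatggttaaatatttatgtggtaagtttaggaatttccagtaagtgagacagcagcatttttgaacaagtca
Il18r1, chr1:40465302-40465601 (plus strand): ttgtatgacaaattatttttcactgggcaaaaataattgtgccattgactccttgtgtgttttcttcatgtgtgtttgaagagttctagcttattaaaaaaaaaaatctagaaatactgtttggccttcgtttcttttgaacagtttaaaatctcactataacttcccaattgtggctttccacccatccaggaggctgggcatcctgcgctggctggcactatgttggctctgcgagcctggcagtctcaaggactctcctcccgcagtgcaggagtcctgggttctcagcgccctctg
Il18rap, chr1:40515112-40515411 (plus strand): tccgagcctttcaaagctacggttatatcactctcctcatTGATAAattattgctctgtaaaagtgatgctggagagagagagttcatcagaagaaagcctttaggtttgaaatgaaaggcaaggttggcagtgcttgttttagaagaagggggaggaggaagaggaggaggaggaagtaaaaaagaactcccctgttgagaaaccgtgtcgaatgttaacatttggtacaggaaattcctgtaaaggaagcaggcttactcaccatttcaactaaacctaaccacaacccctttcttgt
Il1r2, chr1:40085843-40086142 (plus strand): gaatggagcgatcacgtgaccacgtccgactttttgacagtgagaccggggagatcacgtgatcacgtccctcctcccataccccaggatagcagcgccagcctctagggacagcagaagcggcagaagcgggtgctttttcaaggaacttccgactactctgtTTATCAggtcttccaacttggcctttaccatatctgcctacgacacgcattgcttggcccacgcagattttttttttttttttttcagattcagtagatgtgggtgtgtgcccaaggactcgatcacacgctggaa

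The upstream Il1rl1 window held 1 AGATAA and 1 TGATAA, and the downstream window held 1 AGATAA. Il18rap and Il1r2 held 1 TGATAA each, and the Il18r1 window held neither. For comparison, 11.2% of 32817 promoter windows of the same length held AGATAA and 9.06% held TGATAA. Neither the AP-1 motif TGANTCA (7.81% of windows) nor an NF-kB motif of GGG, any 2 bases and TTTCC (1.63%), both searched on both strands, was found in a window of any of the 10 genes. A match is only a description of the letters, and its absence says nothing of the factor.

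Il1rl1 (ENSMUSG00000026069), the ST2 gene, was abundant in every adipose library and low in LN Tregs. It had 46.5 CPM in LN, 2886 CPM in lean adipose, 1028 CPM in obese adipose, 3497 CPM in 10-month Foxp3Cre adipose and 651 CPM in the library labelled Med23 KO. The lowest adipose library was thus still far above LN. Lean adipose Tregs were 56.2-fold higher than LN (51.2 to 61.8), obese adipose Tregs 19.6-fold higher (17.8 to 21.6) and 10-month Foxp3Cre adipose Tregs 75.2-fold higher (68.5 to 82.7), all against the same LN library. That library is of 4-month mice, so for every gene tissue and age cannot be told apart in a fold of 10-month adipose against LN Tregs. Per kilobase of exons, the scale on which genes can be ranked, Il1rl1 stood at place 4985 of 10641 listed genes in LN. It stood at place 126 of 11383 in lean, 424 of 13600 in obese and 88 of 11551 in 10-month Foxp3Cre adipose Tregs, and at place 570 of 10752 in the library labelled Med23 KO. A lower value in a bulk library can come from fewer ST2-positive cells or from less RNA per cell, and these cannot be told apart.

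**Figure D1:**
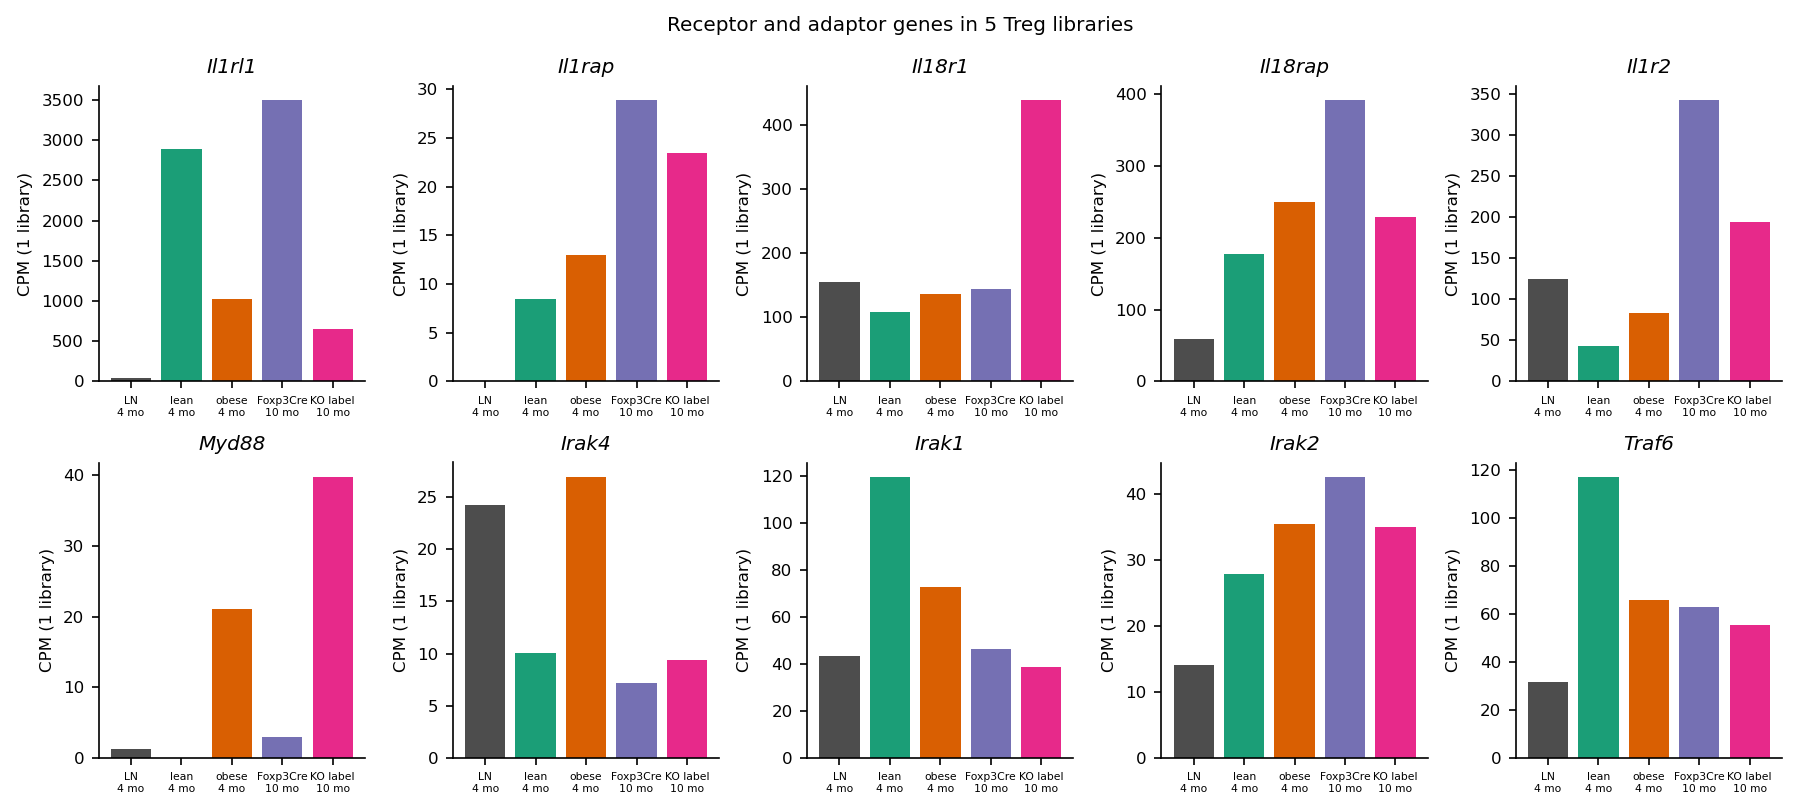
Level of each of the 10 genes in CPM (vertical axis from 0, own scale per gene), 1 bar per library, with no error bar because each group has 1 library. Il1rl1 is lowest in LN at 46.5 CPM and highest in 10-month Foxp3Cre adipose Tregs at 3497 CPM, Il18r1 is highest in the library labelled Med23 KO at 438 CPM, and Myd88 is listed at 0 in lean adipose Tregs.

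Among adipose libraries Il1rl1 was lower in obese than in lean Tregs, 2.81-fold (2.74 to 2.88), and lower in the library labelled Med23 KO than in 10-month Foxp3Cre Tregs, 6.63-fold (6.39 to 6.89). The latter fold is of scaled counts (585 against 3882) and is smaller in CPM (651 against 3497). Rescaling to T cell and Treg markers would lower it further, as it moved the median log2 ratio of all genes in this pair by 0.58. The counting interval does not cover this. The lean and 10-month Foxp3Cre libraries were nearest to each other, with the older 1.21-fold higher (1.19 to 1.23). Macrophage and dendritic cell markers summed to 5058 CPM in obese against 949 CPM in lean adipose Tregs, and erythroid markers to 8943 CPM in the library labelled Med23 KO against 1202 CPM in its partner, and their part in these differences was not tested. The order of the lean and 10-month Foxp3Cre libraries for Il1rl1 turned when libraries were rescaled to equal sums of the 11 T cell and Treg markers, from a log2 ratio of 0.28 to -0.23. Reads of Il1rl1 per read of another gene do not depend on any scaling of the library. There were 0.886 Il1rl1 reads per Foxp3 read in LN (0.779 to 1.01), 13.4 in lean (12.7 to 14.0), 5.71 in obese (5.38 to 6.05) and 18.9 in 10-month Foxp3Cre adipose Tregs (18.0 to 19.8), and 4.20 in the library labelled Med23 KO (3.87 to 4.56). Set against Cd3e, a chain of the T cell receptor complex, they were 0.146, 20.3, 6.42, 16.4 and 3.07 in the same order. On both denominators the obese library and the library labelled Med23 KO lay below the lean and the 10-month Foxp3Cre libraries and above LN.

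**Figure D2:**
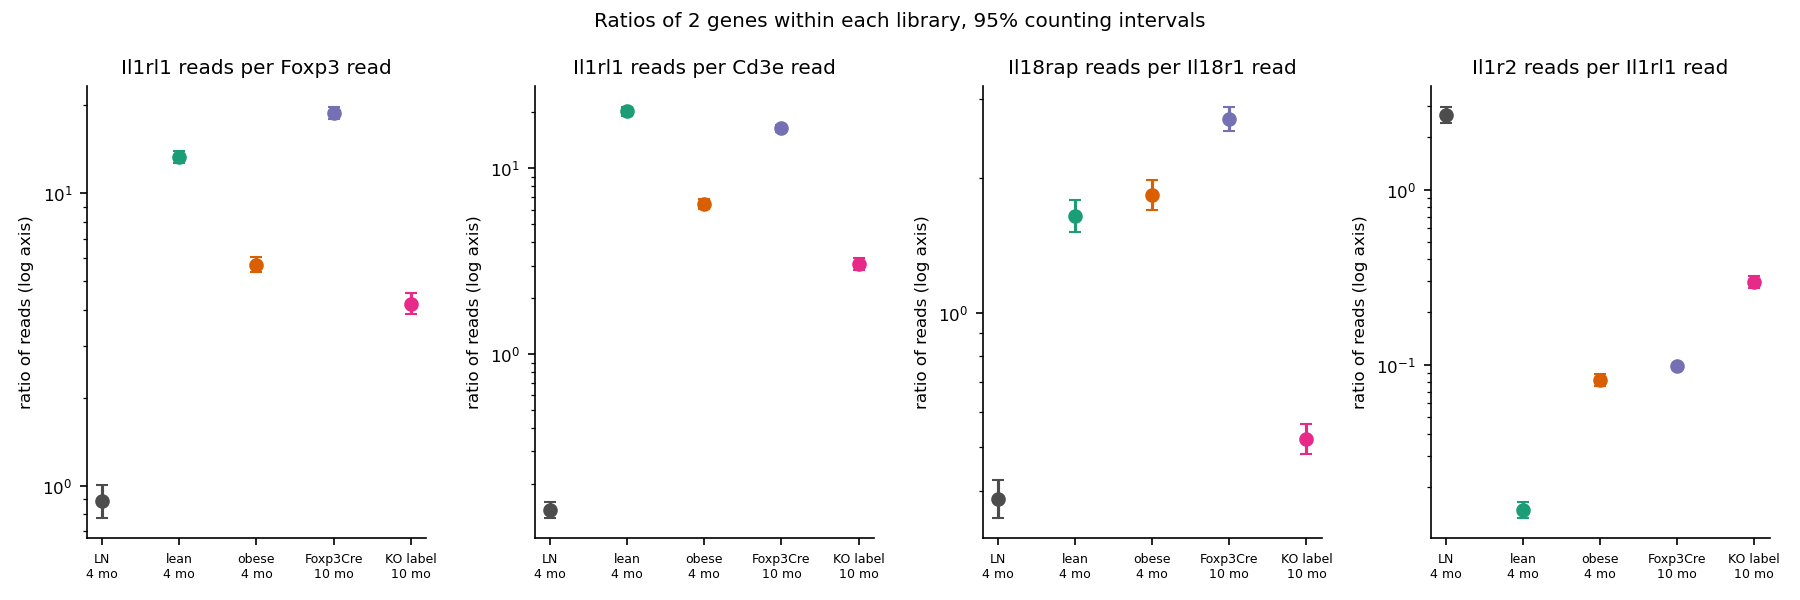
Reads of a gene per read of another gene within each library (log axes), with 95% counting intervals as bars. Il1rl1 per Foxp3 read runs from 0.886 in LN to 18.9 in 10-month Foxp3Cre adipose Tregs, and Il18rap per Il18r1 read is below 1 in LN (0.384) and in the library labelled Med23 KO (0.523) only.

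Il1rap (ENSMUSG00000022514), the gene of the co-receptor chain, was low throughout. It was listed at 0 in LN, at 8.43 CPM (72 reads) in lean, 12.9 CPM (97 reads) in obese and 28.9 CPM (279 reads) in 10-month Foxp3Cre adipose Tregs, and at 23.5 CPM (108 reads) in the library labelled Med23 KO. All 4 adipose libraries were thus above LN, and both 10-month libraries above both 4-month ones. Because LN was at 0, no fold is given against it. Between 10-month Foxp3Cre and lean adipose Tregs Il1rap was 3.43-fold higher (2.64 to 4.51), a larger fold than that of Il1rl1 in the same pair. The library labelled Med23 KO was 1.52-fold lower than its partner (1.21 to 1.91), a difference that all but vanished after rescaling to T cell and Treg markers. Per kilobase of exons Il1rl1 exceeded Il1rap 564-fold in lean, 131-fold in obese and 199-fold in 10-month Foxp3Cre adipose Tregs and 45.7-fold in the library labelled Med23 KO, so receptor transcripts outnumbered those of their co-receptor in each adipose library.

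The chains of the IL-18 receptor did not move together. Il18rap (ENSMUSG00000026068), the signalling chain, had 59.5 CPM in LN, 177 CPM in lean, 250.3 CPM in obese and 391 CPM in 10-month Foxp3Cre adipose Tregs and 229 CPM in the library labelled Med23 KO. Every adipose library was above LN, by 2.70-fold in lean (2.45 to 2.97), 3.74-fold in obese (3.40 to 4.11) and 6.58-fold in 10-month Foxp3Cre adipose Tregs (6.02 to 7.19). Il18r1 (ENSMUSG00000026070), the chain that binds IL-18, had 155, 108, 137, 144 and 438 CPM in the same order, so 4 libraries lay within 108 to 155 CPM and the library labelled Med23 KO stood above them. Against 10-month Foxp3Cre Tregs the library labelled Med23 KO was 2.46-fold higher in Il18r1 (2.29 to 2.63). In Il18rap it was 2.11-fold lower (1.97 to 2.26), which was under 2-fold after rescaling to equal sums (log2 ratio -0.77 against -1.07). Il18rap reads per Il18r1 read were 0.384 in LN (0.348 to 0.423), 1.64 in lean, 1.83 in obese, 2.71 in 10-month Foxp3Cre adipose Tregs (2.55 to 2.89) and 0.523 in the library labelled Med23 KO (0.485 to 0.563). In this ratio the library labelled Med23 KO lay nearer to LN than to any other adipose library.

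Il1r2 (ENSMUSG00000026073), the IL-1 decoy receptor gene and also a marker of activated Tregs, was lowest in lean adipose Tregs and highest in those of 10 months. It had 124 CPM in LN, 42.7 CPM in lean, 83.8 CPM in obese and 342 CPM in 10-month Foxp3Cre adipose Tregs and 193 CPM in the library labelled Med23 KO. Both 4-month adipose libraries were below LN and both 10-month libraries above it. Lean adipose Tregs were 3.21-fold lower than LN (2.85 to 3.62), while 10-month Foxp3Cre adipose Tregs were 2.75-fold higher than LN (2.57 to 2.94) and 8.0-fold higher than lean adipose Tregs (7.18 to 8.94). Obese exceeded lean adipose Tregs 1.96-fold (1.72 to 2.24). The library labelled Med23 KO was 2.18-fold lower than 10-month Foxp3Cre Tregs (2.03 to 2.35), with a log2 ratio of -1.12 that became -0.82 after rescaling to equal sums and -0.54 after rescaling to T cell and Treg markers. There were 2.67 Il1r2 reads per Il1rl1 read in LN (2.40 to 2.99), 0.0148 in lean adipose Tregs (0.0133 to 0.0164) and 0.297 in the library labelled Med23 KO (0.275 to 0.320). Per kilobase of exons, the scale for comparing genes, Il1r2 exceeded Il1rl1 9.66-fold in LN and 1.07-fold in the library labelled Med23 KO, and lay below it in the other 3 libraries. Neutrophils also carry Il1r2. Of 10 neutrophil markers 0 to 2 were above 0 per library, with summed levels of 0 CPM in LN, 56.3 in lean, 17.2 in obese and 22.6 in 10-month Foxp3Cre adipose Tregs and 16.8 in the library labelled Med23 KO. Mmp9, which other cells also express, made up 51.4 CPM in lean and all of the obese and 10-month Foxp3Cre sums. In the library labelled Med23 KO the sum came from Csf3r at 15.5 CPM and Cxcr2 at 1.31 CPM, both listed at 0 in its partner. S100a8 and S100a9 had no value in any library. The part of these cells in the Il1r2 values was not tested.

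Along chromosome 1 the genes of the cluster follow each other as Map4k4, Il1r2, Il1r1, Il1rl2, Il1rl1, Il18r1, Il18rap and Slc9a4 in the RefSeq order of protein-coding genes. Expression did not follow this order. On the scale of CPM per kilobase of exons, Il1rl1 was 507 in 10-month Foxp3Cre adipose Tregs, beside 0.517 for Il1rl2, the IL-36 receptor gene just before it, and 30.0 for Il18r1 just after it. Il1r1, the signalling IL-1 receptor gene, was listed at 0 in LN and had 19.9 CPM in lean and 3.6 CPM in obese adipose Tregs, with no value in either 10-month library. Lean against LN gave the neighbours opposite directions: Il1rl1 and Il18rap were over 2-fold higher, Il1r2 over 2-fold lower, and Il18r1 1.59-fold lower (1.46 to 1.72). The Il18r1 difference was largely lost after rescaling to T cell and Treg markers, which moved the median log2 ratio of all genes by 0.56.

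**Figure D3:**
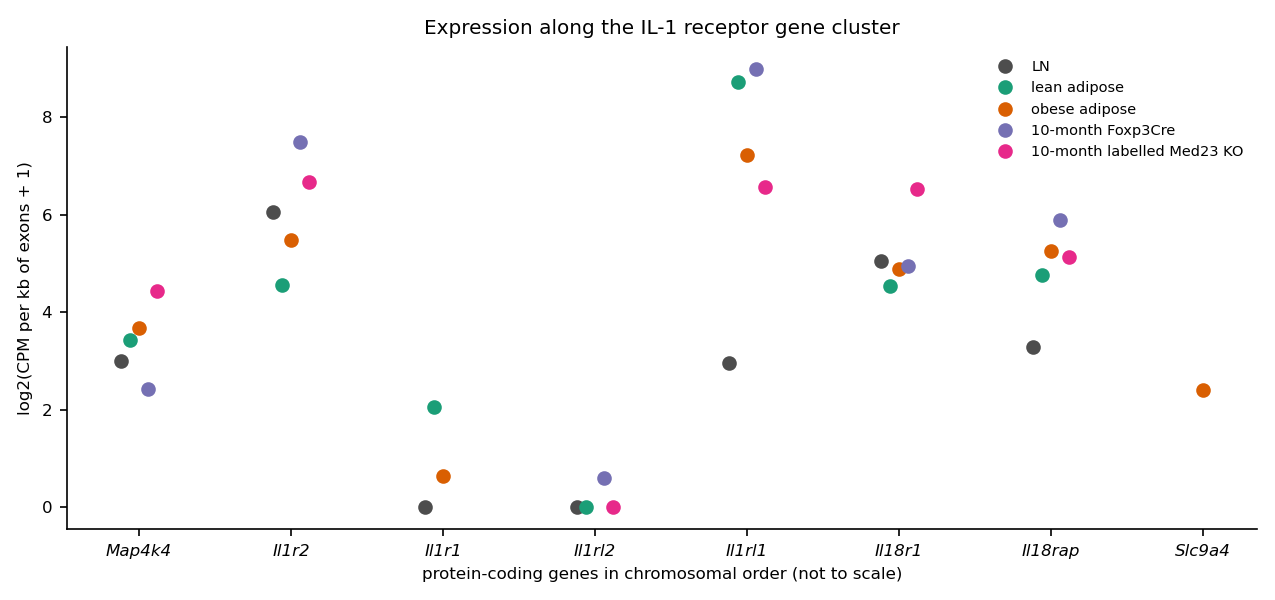
Level of each gene of the IL-1 receptor cluster as log2(CPM per kilobase of exons + 1), in chromosomal order and not to distance, 1 point per library and none where no value is listed. Il1rl1 spans the widest range, from 6.75 CPM per kilobase in LN to 507 in 10-month Foxp3Cre adipose Tregs, while Il18r1 next to it stays between 22.4 and 32.2 except in the library labelled Med23 KO, at 90.9.

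Myd88 (ENSMUSG00000032508), the adaptor that every TIR receptor of this group recruits, had few reads. It had 1.24 CPM (12 reads) in LN, was listed at 0 in lean adipose Tregs, and had 21.1 CPM (158 reads) in obese adipose, 2.90 CPM (28 reads) in 10-month Foxp3Cre adipose and 39.8 CPM (183 reads) in the library labelled Med23 KO. The library labelled Med23 KO was 11.1-fold higher than its partner (7.44 to 17.2), and obese adipose Tregs were 15.1-fold higher than LN (8.42 to 29.9). Myd88 overlaps Acaa1a, a peroxisomal thiolase gene on the opposite strand, and the strand setting of the counting is not given, so reads of the pair may have been shared. Acaa1a had 14.5 CPM in LN, 0 in lean, 24.7 in obese and 8.60 in 10-month Foxp3Cre adipose Tregs and 33.5 in the library labelled Med23 KO. Both genes were thus at 0 in lean adipose Tregs and highest in the library labelled Med23 KO. Sharing of reads between them was not tested. The summed level of the 17 macrophage and dendritic cell markers was 5058 CPM in obese adipose Tregs but 127 CPM in the library labelled Med23 KO, against 678 CPM in its partner. Their part in the Myd88 values was not tested.

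The kinases that MyD88 gathers went in different directions. Irak4 (ENSMUSG00000059883), the kinase that acts first, had 24.2 CPM in LN, 10.1 in lean, 26.9 in obese and 7.15 in 10-month Foxp3Cre adipose Tregs and 9.36 in the library labelled Med23 KO. LN and obese adipose Tregs were close together, 1.01-fold lower in obese (0.835 to 1.23) with a sign that turned after rescaling to equal sums (log2 ratio 0.15), and both were above the other 3 libraries. Irak4 was 2.66-fold lower in lean than in LN Tregs (2.07 to 3.44), a log2 ratio of -1.32 that became -0.79 after rescaling to T cell and Treg markers, and 2.68-fold higher in obese than in lean Tregs (2.07 to 3.49). Its overlapping opposite-strand gene Twf1, an actin-binding protein gene, had 13.1, 26.7, 48.7, 50.4 and 27.2 CPM. Twf1 was lowest in LN, where Irak4 was among its highest, while in obese adipose Tregs both genes were among their highest. Sharing of reads between them was not tested.

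Irak1 (ENSMUSG00000031392), which IRAK4 phosphorylates and which lies on the X chromosome, had 43.3 CPM in LN, 120 in lean, 72.7 in obese and 46.3 in 10-month Foxp3Cre adipose Tregs and 38.5 in the library labelled Med23 KO. It was higher in the libraries with little or no Xist, and the other 3 lay within 38.5 to 46.3 CPM. Lean adipose Tregs were 2.50-fold higher than LN (2.23 to 2.81), and 10-month Foxp3Cre adipose Tregs 1.07-fold higher (0.934 to 1.22). The lean and obese libraries also share low Gapdh, and the part of sex in the Irak1 values was not tested. Irak2 (ENSMUSG00000060477), which sustains the response, had 14.1, 27.9, 35.5, 42.7 and 35 CPM in the same order. All 4 adipose libraries were above LN, by 1.79-fold in lean (1.44 to 2.22), 2.23-fold in obese (1.81 to 2.76) and 3.02-fold in 10-month Foxp3Cre adipose Tregs (2.48 to 3.69). Traf6 (ENSMUSG00000027164), the ubiquitin ligase next in the chain, had 31.6, 117, 65.8, 62.8 and 55.5 CPM. Lean adipose Tregs were 3.37-fold above LN (2.96 to 3.84). Traf6 was 1.79-fold lower in obese than in lean (1.60 to 1.99) and 1.99-fold higher in 10-month Foxp3Cre adipose than in LN Tregs (1.73 to 2.29). Irak1, Irak2 and Traf6 were 1.48-fold, 1.5-fold and 1.40-fold lower in the library labelled Med23 KO than in its partner. After rescaling to T cell and Treg markers the sign turned for Irak1 and Traf6 (log2 ratios 0.02 and 0.10), and the Irak2 difference all but vanished. The median log2 ratio of the 10 genes in this pair went from -0.57 to 0.01.

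**Figure D4:**
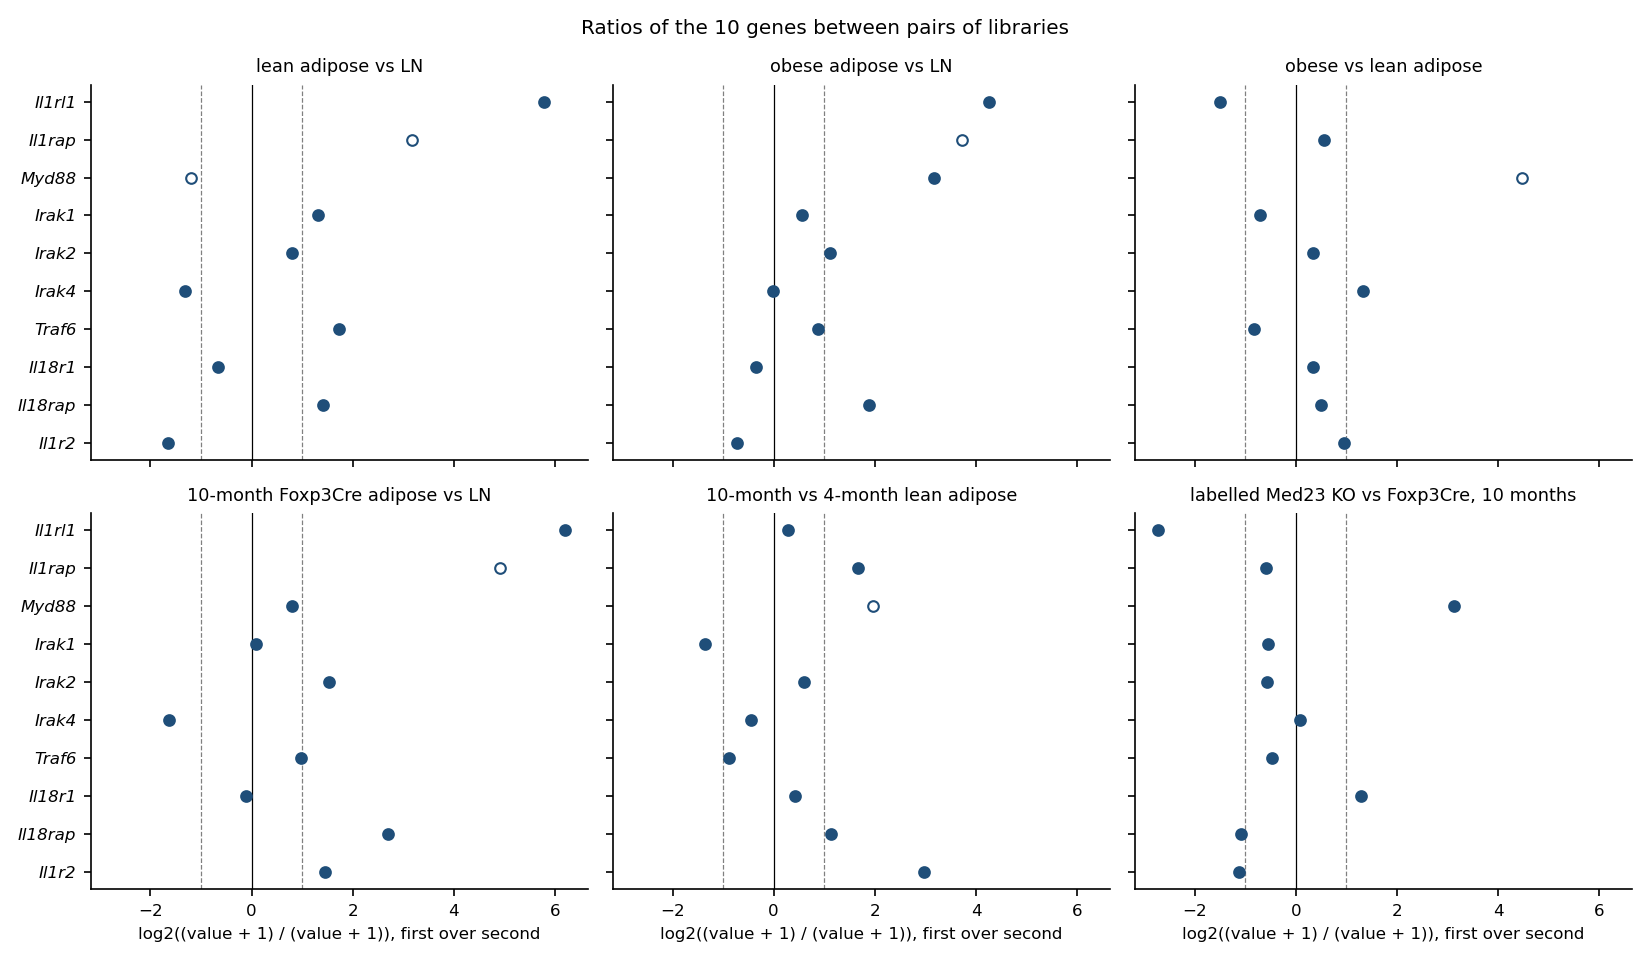
Log2 ratio of each gene between the libraries named above each panel (horizontal axis, first over second, pseudocount 1), open circles where a library lists the gene at 0, dashed lines at 2-fold. Il1rl1 lies far to the right in each comparison with LN and to the left in obese against lean (-1.49) and in the library labelled Med23 KO (-2.73).

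On the log2 scale with a pseudocount of 1, genes at least 2-fold apart were common in every comparison, and the 10 genes are set beside that background. In lean adipose against LN, 5 of 10 were higher, where 37.6% of 13501 measured genes were, and 3 were lower, where 32.1% were (69.7% in either direction). Their median log2 ratio was 1.05 against 0.14 over all genes. In obese adipose against LN, 5 were higher (41.7% of all genes) and 0 lower (23.7%, with 65.4% in either direction). In 10-month Foxp3Cre adipose against LN, 5 were higher (34.3%) and 1 lower (29.8%, 64.1% in either direction). These comparisons share the LN library. In obese against lean adipose, 2 were higher (34.0%) and 1 lower (18.6%, 52.6% in either direction). In 10-month against 4-month lean adipose, 4 were higher (28.4%) and 1 lower (32.7%, 61.2% in either direction). In the library labelled Med23 KO against its partner, 2 were higher (28.6%) and 3 lower (34.9%, 63.5% in either direction), or 1 lower after rescaling to equal sums. With 10 genes these shares are coarse, and at 3 to 8 genes called of 10 beside 52.6% to 69.7% of all genes they are no result about the group.

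The other genes of the pathway were read from lists by role, 86 genes in all. Of ligands and soluble antagonists, Il33 itself had no value in any of the 5 libraries. Il1b had 0 CPM in LN, 31.0 in lean, 437 in obese and 53.0 in 10-month Foxp3Cre adipose Tregs and 23.5 in the library labelled Med23 KO. Il1rn, the IL-1 receptor antagonist gene, had 0, 66.3, 119, 11.6 and 0. Both are genes of macrophages too, and the summed level of 17 macrophage and dendritic cell markers was 29.4, 949, 5058, 678 and 127 CPM in the same order, with Csf1r, Cd68 and Mrc1 at 0 in LN and in the library labelled Med23 KO. Of the 17, those above 0 numbered 2, 15, 17, 11 and 8. Their part in the ligand values was not tested. Il18, the ligand of the IL-18 receptor, had 12.5, 9.37, 26.4, 13.3 and 1.31 CPM. The last value stood for 6 reads, the fewest listed for any gene in the library labelled Med23 KO.

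Among inhibitors of the receptor complex, Sigirr, a TIR receptor that dampens ST2 and IL-1 signalling, had 56.4 CPM in LN, 2.34 in lean, 20.5 in obese and 33.9 in 10-month Foxp3Cre adipose Tregs and 64.9 in the library labelled Med23 KO. It was 26.6-fold lower in lean adipose than in LN Tregs (17.0 to 43.9) and 8.77-fold higher in obese than in lean (5.49 to 14.8). Across the 5 libraries Sigirr was highest in the pair where Il1rl1 was lowest and lowest in lean adipose Tregs, with 20 reads there. The 10-month Foxp3Cre library, highest in Il1rl1, broke this order, as its Sigirr level was above that of obese adipose Tregs. Irak3, which encodes an inhibitory kinase-like protein, was listed at 0 in LN and had 39.0, 34.8, 11.4 and 4.13 CPM in the adipose libraries. Tollip, an adaptor that restrains IRAK1, had 0, 4.68, 48.4, 27.7 and 11.8 CPM. Tnfaip3, the gene of the deubiquitinase A20, had 843 CPM in LN and 2077 to 2678 CPM in the 4 adipose libraries, with lean adipose Tregs 2.65-fold above LN (2.58 to 2.72).

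Of 18 other adaptors, kinases and ubiquitin ligases, 12 were measured in lean against LN, with 6 higher and 2 lower and a median log2 ratio of 1.24. Over all genes 37.6% were higher and 32.1% lower in this comparison, the background for each list that follows. Map3k7, the gene of the kinase TAK1, was 7.74-fold higher (6.22 to 9.73) and Tab2, the gene of its partner, 4.73-fold higher (4.30 to 5.22). Tab3 had 63.2 CPM against 0, while Tirap had 0 against 6.70 CPM. Of 13 IKK and MAP kinase genes 6 were higher and 2 lower, with Map2k3 at 185 against 26.2 CPM and Mapk9 at 8.08 against 77.1 CPM. Of 9 feedback inhibitors 3 were higher, Tnfaip3 with Zc3h12a and Nfkbiz, and 1 lower, Otud7b, a share of higher genes no larger than the background. Over all 86 genes, 65 were measured, with 35 higher and 9 lower and a median log2 ratio of 1.20 against 0.14 over all genes. Without the genes of ST2-positive tissue Tregs, described below, and the Toll-like receptors, 20 of 41 (48.8%) were higher and 6 (14.6%) lower. In obese against lean adipose 20 of 71 were higher and 16 lower (34.0% and 18.6% of all genes), but the lists differed. Toll-like receptors that use MyD88, listed with their co-receptors such as Cd14, had 6 of 9 higher and 1 lower, beside the macrophage and dendritic cell markers at 5058 against 949 CPM, and the genes of tissue Tregs had 1 of 17 higher and 8 lower.

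In the library labelled Med23 KO, 32 of 62 measured pathway genes were at least 2-fold lower than in 10-month Foxp3Cre Tregs and 4 higher (34.9% and 28.6% of all genes), with a median log2 ratio of -1.14 against -0.15 over all genes. After rescaling to T cell and Treg markers 24 were lower and 9 higher, with a median of -0.56 against 0.43 over all genes. Of the 32, 12 were genes of tissue Tregs and 4 were Toll-like receptors or Cd14, and without those lists 16 of 41 (39.0%) were lower, near the background, and 4 (9.76%) higher. Ikbkg, the gene of the IKK scaffold NEMO, was 17.0-fold lower (9.61 to 33.2), Mapk8, the gene of JNK1, 31.2-fold lower (17.3 to 62.8), and Nfkbia, an NF-kB inhibitor and target, 4.81-fold lower (4.65 to 4.98). Map3k7 went the other way, 3.34-fold higher (2.97 to 3.76), and Tnfaip3 was near its partner, at 1.02-fold lower (0.998 to 1.04). The markers of other cells differed between these libraries too. Macrophage and dendritic cell markers summed to 127 against 678 CPM, stromal markers to 0 against 53.2 CPM, and erythroid markers to 8943 against 1202 CPM, with T cell and Treg markers at 9654 against 11744 CPM. Their part in these differences was not tested.

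**Figure D5:**
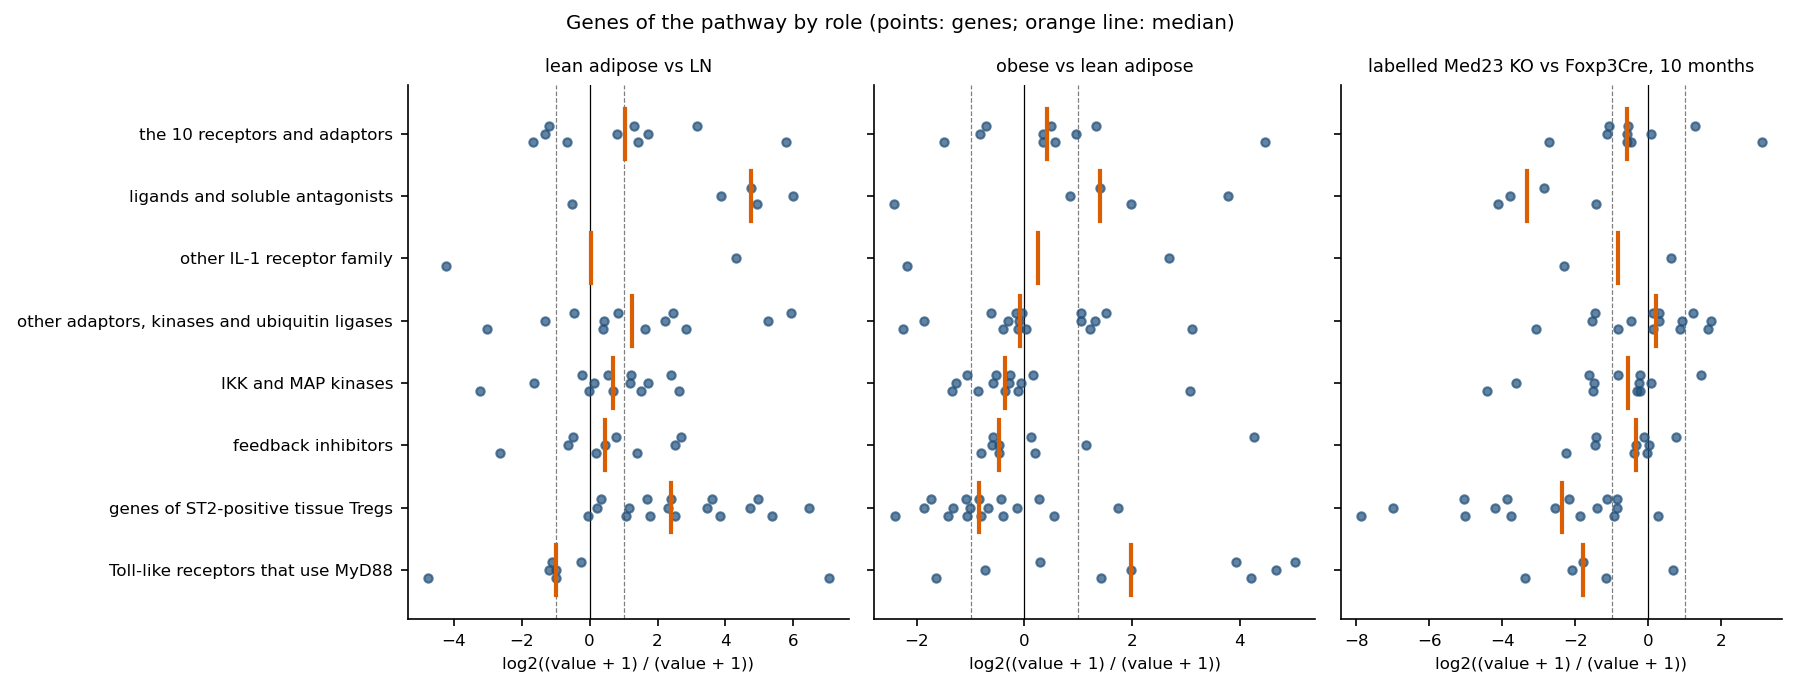
Log2 ratio (pseudocount 1) of each measured gene by role for 3 comparisons, 1 point per gene with small vertical offsets for legibility, the median in orange and dashed lines at 2-fold. Genes of ST2-positive tissue Tregs have a median of 2.38 in lean against LN, -0.85 in obese against lean and -2.37 in the library labelled Med23 KO against its partner.

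Genes that accompany ST2 in tissue Tregs were read from a list of 17, chosen with earlier results of these data known. In lean adipose against LN 14 of 17 were higher and 0 lower (37.6% and 32.1% of all genes), with a median log2 ratio of 2.38. Gata3, the transcription factor gene that acts with ST2, had 41.4 CPM in LN, 511 in lean, 291 in obese and 506 in 10-month Foxp3Cre adipose Tregs and 347 in the library labelled Med23 KO. Areg, the gene of the repair factor amphiregulin, had 43.0, 1287, 608, 1946 and 906 CPM. Like Il1rl1 it was lowest in LN and highest in 10-month Foxp3Cre adipose Tregs, but the obese library and the library labelled Med23 KO changed places. In obese against lean adipose 8 of 17 were lower and 1 higher (18.6% and 34.0% of all genes), with Areg 2.12-fold lower (2.04 to 2.19) and Irf4, a transcription factor gene of effector Tregs, 5.35-fold lower (4.81 to 5.96). Ccr8, a chemokine receptor gene, was the one that was higher, at 291 against 86.1 CPM. In the library labelled Med23 KO 12 of 16 were lower and 0 higher (34.9% and 28.6% of all genes). There Klrg1 had 12.2 against 1365 CPM, Il10 65.7 against 1746 CPM, Il5 5.22 against 170 CPM, and Pparg 0 against 212 CPM. These are among the lowest ratios of the list. Its median log2 ratio was -2.37, beside -2.73 for Il1rl1, and Gata3 was 1.80-fold lower (1.70 to 1.90).

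Among 8185 genes at 20 CPM or more in at least 1 library, the 5 whose log2(CPM + 1) profile over the 5 libraries came nearest to that of Il1rl1, each centred on its own mean, were Yes1, Mlf1, Hilpda, Ipmk and Plk3. Their root mean square difference from Il1rl1 was 0.25, 0.26, 0.27, 0.39 and 0.40 log2 units. Hilpda, a lipid droplet gene, had 30.2 CPM in LN, 1647 in lean, 1025 in obese and 2632 in 10-month Foxp3Cre adipose Tregs and 453 in the library labelled Med23 KO. Yes1, a Src family kinase gene, had 0, 61.6, 29.2, 103 and 12.2 CPM. Of the other 9 receptor and adaptor genes Il1rap was nearest, at 1.20, followed by Il18rap at 1.49, and Myd88 was farthest, at 3.03. The profiles rest on 5 libraries that differ in depth and in the sex markers above.

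Mast cells, basophils and type 2 innate lymphoid cells also carry ST2. Of 10 mast cell and basophil markers, 0 to 3 were above 0 per library and their summed level was 8.15 CPM in LN, 39.0 in lean, 51.5 in obese and 9.74 in 10-month Foxp3Cre adipose Tregs and 0 in the library labelled Med23 KO. Fcer1a, Ms4a2, Gata2, Mcpt4 and Tpsb2 had no value in any library, and Hdc, which macrophages and neutrophils can express too, made up 39.0 CPM in lean and 49.6 CPM in obese adipose Tregs. The part of mast cells and basophils in the Il1rl1 values was not tested. No list for innate lymphoid cells was used, since they share most of their genes with ST2-positive Tregs. Stromal markers summed to 1083 CPM in lean adipose Tregs and to 0 to 53.2 CPM elsewhere, and their part in the lean values was not tested.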

How the data were processed

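Messenger RNA of 5 Treg libraries, 1 per group, was sequenced. Per the labels' protocols, RNA was taken up in Trizol and libraries were made with an Illumina TruSeq kit. TopHat2 2.0.9, Bowtie2 2.0.6 and the mm8 build appear in the submitters' processing notes. How reads were counted and normalized, with which annotation and strand setting, is not given in the sources used. The authors deposited 3 tables of 2 libraries each, whose values are a scaled read signal per Ensembl gene ID. Within a library 100% of the nonzero values were multiples of 1 step, to within 0.01 read, which gave the reads behind them, and values under 1 are listed as 0. The LN library is in 2 tables, with 0 differing reads. Without replicates no count model was fitted. No column of another sample was present.

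Of 49927 IDs, 49326 matched a GENCODE M21 symbol, and of IDs with the same symbol the one with most reads was used. Columns were rescaled to a sum of 1000000 (CPM). Across tables a gene without a value was taken as 0. Log2 ratios used a pseudocount of 1, a gene was measured at 1 or more in either library, and called means at least 2-fold. Fold intervals are exact Clopper-Pearson intervals on the reads of both libraries, from a 95% level. They cover counting error only, since reads without molecular identifiers may be copies of the same molecule. Exon lengths are the union of exons in GENCODE M21 (GRCm38). Promoter sequences come from RefSeq, where all 10 genes had a window. Named pathway genes were a fixed set (Il33, Il1r1, Il1rl2, Sigirr, Irak3, Tnfaip3, Gata3 and Areg) and the 3 largest log2 ratios per list and comparison, and Tab2, Il10, Acaa1a and Twf1 were added after their values were seen. The members and lists were chosen with earlier results of these data known. The calculations ran in Python 3.11.15 with pandas 2.3.3, scipy 1.17.1, matplotlib 3.10.9 and numpy 2.4.6, and were tested on simulated data.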

Additional observations from a re-analysis of the deposited data

How the results depend on the processing

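Of 367 values of the 10 genes under an alternative (pseudocounts of 0.5 and 5, a minimum value of 5, centring, other scalings), 360 kept the sign of the main value, 19 crossed the 2-fold line and 0 called values changed sign. Another pseudocount or minimum value cannot turn a sign. The scalings moved the median log2 ratio of all genes by 0.58 at most, less than the 2-fold line of a called value. The counts of kept signs are therefore no measure of robustness. In the library labelled Med23 KO against its partner, 5 genes were called. Subtracting the median over all genes left 3, rescaling to sums of 1000000 left 3, and rescaling to the summed T cell and Treg markers left 3, as Il18rap and Il1r2 were then under 2-fold. The rescaling to T cell and Treg markers was chosen after seeing the data. So was leaving the tissue Treg genes and Toll-like receptors out of the pathway lists, which took the genes called from 44 to 26 in lean against LN, 45 to 27 in obese against LN, 36 to 20 in obese against lean, 41 to 20 in 10-month Foxp3Cre against LN and 36 to 20 in the library labelled Med23 KO, with fewer genes counted. The rescaling moved the median log2 ratio of all genes by 0.56 in lean against LN, 0.40 in obese against LN, -0.50 in 10-month against 4-month lean adipose and 0.58 in the library labelled Med23 KO. Obese against LN had a median of 0.44, and 6125 genes higher against 3471 lower became 4597 and 4596 when centred. After rescaling to T cell and Treg markers, 5082 higher and 4328 lower became 6093 and 3357 in lean against LN, 3928 and 4526 became 3193 and 5789 in 10-month against 4-month lean adipose, and 3862 and 4705 became 5125 and 3759 in the library labelled Med23 KO. Depth limits Myd88, with 12 to 183 reads where listed, and Il1rap, with 72 to 279. No paired analysis was possible because each group has 1 library, and for the same reason no replicate could be left out.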
